A study of Mus musculus with 21 samples.

Results

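This account compares normal intestine of APCMin mice with normal intestine of wild-type C57BL/6J (B6) mice over the regions whose DNA methylation differs between normal tissue and adenoma. It uses 6 of the 21 samples of the series, namely 3 MeDIP-seq libraries of B6 normal tissue (B1, B2 and B3) and 3 of APCMin normal tissue (N4, N5 and N6), chosen by their tissue and genotype labels. MeDIP-seq enriches methylated DNA fragments with an antibody and sequences them, and each value is a level in rpm (reads per 1000000 mapped reads), here the mean coverage of a region by extended reads scaled to the library. The regions are 13980 differentially methylated regions (DMRs), of which 5135 are hypermethylated and 8845 hypomethylated in adenoma. The adenoma libraries (Ad4, Ad4-1, Ad5, Ad6 and Ad7) serve here only to show which way adenoma lies.

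All animals were male and 15 to 19 weeks old, and the normal tissue was ileum. The B6 animals were wild-type littermates of the APCMin animals, on a C57BL/6J background that had been crossed to C57BL/6JOlaHsd. The APCMin animals were heterozygous for the Min allele of Apc by inheritance, and the labels name no treatment for these animals. Each library came from 1 animal. Animals 4, 5 and 6 gave both normal tissue and adenoma, so the N libraries are tissue from tumour-bearing animals. Ad4 and Ad4-1 are different adenomas of animal 4, so the 5 adenoma libraries (n = 5 below) do not stand for 5 separate animals. The labels call the normal tissue intestine and were not checked against cell type markers here, since a MeDIP level does not measure expression.

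DNA methylation of mammals lies mainly on cytosines followed by guanine (CpG) and is copied when cells divide. Apc is part of the complex that marks beta-catenin for destruction and so holds Wnt signalling down, and the Min allele encodes a truncated protein. Adenomas of APCMin mice arise in epithelium that has lost the remaining wild-type allele, while the surrounding mucosa still carries it. The comparison of N with B therefore asks whether heterozygous normal mucosa already differs from wild type at regions that differ in adenoma. A region on the hypermethylated list with N above B, or on the hypomethylated list with N below B, is called shifted towards adenoma, and the opposite is called away. The lists were drawn up with the 6 normal libraries pooled against the adenomas, so that N and B entered the choice alike. A region where N had already reached the adenoma level would not have met that choice and is not on the lists.

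3 regions show what kind of sequence is compared. Among DMRs with non-overlapping N and B values and a mean of 0.5 rpm or more in the higher group, they are the gene-associated ones with the largest log2 difference for hypermethylated DMRs with N lower and for hypomethylated DMRs of either direction, each given with the 300 bases at its centre, on the plus strand of NCBIM37 (mm9), with every CpG in capitals. The bases of Hoxa3 are chr6:52120601-52120900, those of Mob3b chr4:34934351-34934650 and those of Adcy6 chr15:98437226-98437525.
Hoxa3, exon, 20 CpG, N below B and adenoma above both: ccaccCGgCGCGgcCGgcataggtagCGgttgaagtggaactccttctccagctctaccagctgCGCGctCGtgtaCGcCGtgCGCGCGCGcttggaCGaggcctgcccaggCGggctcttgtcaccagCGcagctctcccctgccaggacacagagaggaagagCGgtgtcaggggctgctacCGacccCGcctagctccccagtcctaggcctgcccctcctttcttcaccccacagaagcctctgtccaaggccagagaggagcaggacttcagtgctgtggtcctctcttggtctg
Mob3b, intron, 7 CpG, N below B and adenoma below both: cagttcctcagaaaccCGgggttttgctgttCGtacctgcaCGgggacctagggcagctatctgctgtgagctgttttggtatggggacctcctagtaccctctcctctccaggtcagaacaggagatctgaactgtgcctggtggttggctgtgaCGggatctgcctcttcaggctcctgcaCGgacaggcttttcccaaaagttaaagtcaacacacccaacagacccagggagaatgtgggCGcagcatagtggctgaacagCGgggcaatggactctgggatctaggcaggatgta
Adcy6, from a DMR whose edge reaches the promoter, 6 CpG, N above B and adenoma below both: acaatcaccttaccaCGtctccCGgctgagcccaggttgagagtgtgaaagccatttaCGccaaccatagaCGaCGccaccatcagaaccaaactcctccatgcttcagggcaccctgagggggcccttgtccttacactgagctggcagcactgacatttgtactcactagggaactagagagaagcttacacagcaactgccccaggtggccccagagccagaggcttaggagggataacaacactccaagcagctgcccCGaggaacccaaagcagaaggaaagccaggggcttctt
The Hoxa3 bases hold more CpG than the other sequences shown, whose CpG are scattered. The Adcy6 bases lie inside the gene, downstream of the promoter as defined here.

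Across the whole lists, the N libraries lay with the B libraries and apart from adenoma. Over the hypermethylated DMRs the mean level was 0.299, 0.325 and 0.317 rpm in B1, B2 and B3 and 0.301, 0.289 and 0.325 rpm in N4, N5 and N6. The groups overlapped, with means of 0.314 ± 0.0136 rpm in B and 0.305 ± 0.0183 rpm in N (SD, n = 3 each), against 0.482 ± 0.0107 rpm in adenoma (SD, n = 5). Over the hypomethylated DMRs the mean level was 0.478, 0.467 and 0.495 rpm in B and 0.466, 0.469 and 0.467 rpm in N. There the N libraries were close together, and N5 lay above B2, so that the groups overlapped on this list too. The means were 0.48 ± 0.0139 rpm in B and 0.467 ± 0.00156 rpm in N (SD, n = 3 each), against 0.286 ± 0.0119 rpm in adenoma (SD, n = 5). The adenoma separation itself is how the lists were made and is no finding.

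**Figure D1:**
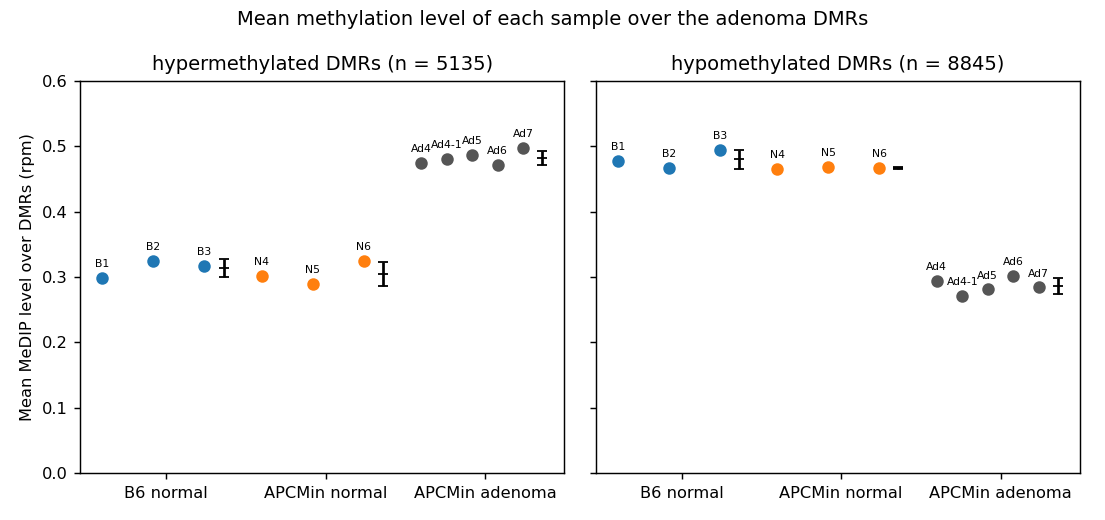
Mean MeDIP level of each library over the hypermethylated (left) and hypomethylated (right) DMRs in rpm, with 1 point per library and the group mean with its SD as a bar beside the points. The N points lie among or next to the B points on both lists, between 0.289 and 0.325 rpm on the left and between 0.466 and 0.469 rpm on the right.

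A tissue of another genotype could still differ from region to region while its mean stays level, so the distance between libraries was taken over all DMRs. The mean absolute difference on the log2(rpm + 0.05) scale was 0.298 to 0.317 between pairs of B libraries and 0.299 to 0.315 between pairs of N libraries. Between a B and an N library it was 0.286 to 0.317. By this mean, an N library was no farther from a B library than libraries of 1 genotype were from each other. A mean over all DMRs would hardly show a difference confined to a small part of them. The distance to the adenomas was 0.571 to 0.718 for B libraries and 0.57 to 0.707 for N libraries.

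No DMR differed between N and B in limma with Benjamini-Hochberg adjustment over all 13980 DMRs (0.00%, lowest adjusted p = 0.68). At an unadjusted p under 0.05 there were 647 DMRs (4.63%), with N higher at 191 (1.37%) and N lower at 456 (3.26%). That threshold passes about this share of regions by chance alone. The N-lower share of the 647 DMRs was 70.5%, but 52.6% once each library's median over all 13980 DMRs was subtracted and 56.2% after quantile normalization. This split thus depends on how libraries are scaled. Both scalings were computed on the DMRs themselves, so they would also remove a shift of N shared by most DMRs. The median log2 difference, N minus B, was -0.02 on each list, and 0.02 and 0.01 with the library medians subtracted. In the values as deposited, the middle 95% of differences ran from -0.53 to 0.47 on the hypermethylated list and from -0.45 to 0.37 on the hypomethylated list. For comparison, the median adenoma difference from all normal libraries was 0.56 and -0.65. Only 4 DMRs had an N to B difference of at least 1 on the log2 scale, all with N lower.

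The error of a single region was wide. The median standard error of the N minus B difference was 0.21 and the median half-width of its 95% interval 0.43. With that error, 1 DMR alone would have needed a log2 difference of 1.23 to be called, and each of 100 DMRs one of 0.86. At the median error, an estimate of the size typical of adenoma would therefore not have been called where 100 or fewer regions differed. A true difference of that size could still have given a larger estimate at some regions. The size needed falls as more regions differ, and it was not computed for larger numbers. The SD between libraries was the same in both groups, with a median of 0.22 in B and 0.22 in N.

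**Figure D2:**
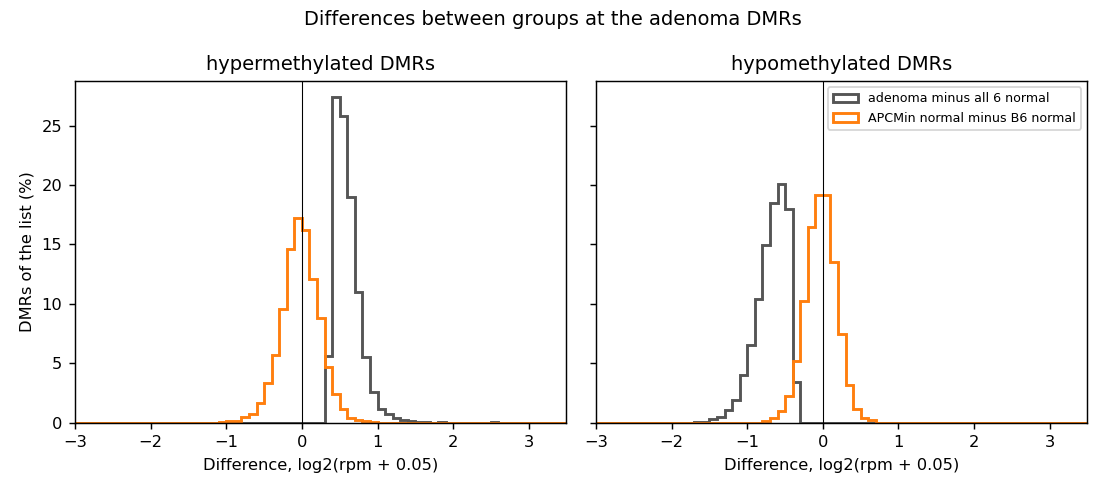
Distribution of log2(rpm + 0.05) differences over the hypermethylated (left) and hypomethylated (right) DMRs, as the percent of DMRs per 0.1 step, for adenoma minus all 6 normal libraries (grey) and APCMin normal minus B6 normal (orange). The orange curves are centred near 0 with medians of -0.02, while the grey curves lie to 1 side because the lists were chosen by that difference.

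Counting regions by direction gives the same picture without a model. The 3 N values all lay above or all below the 3 B values at 1127 DMRs (8.06%), with N higher at 453 (3.24%) and N lower at 674 (4.82%). Separation of 3 from 3 values also arises by chance, so the count by itself shows no difference between genotypes. On the hypermethylated list, 186 such DMRs had N higher, towards adenoma, and 223 had N lower, away from it. On the hypomethylated list, 451 had N lower, towards adenoma, and 267 had N higher, away from it. N lower was thus the commoner direction on each list, whether or not it pointed to adenoma, but this order depended on the scaling of the libraries. With the library medians subtracted it turned over on both lists, to 268 DMRs with N higher and 203 with N lower on the hypermethylated list and to 426 with N higher and 359 with N lower on the hypomethylated list.

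Read as position between the groups, the mean of N lay between B and adenoma at 2374 hypermethylated DMRs, and that of B lay between N and adenoma at 2758. On the hypomethylated list the counts were 4855 and 3988. N lay beyond adenoma at 0 DMRs of either list, so these counts restate the direction of N minus B. N was higher at 46.3% of the hypermethylated and lower at 54.9% of the hypomethylated DMRs. They use the values as deposited, and the hypomethylated median went from -0.02 to 0.01 with the library medians subtracted. N lay nearer to adenoma than to B at 222 hypermethylated and 200 hypomethylated DMRs. The mirror count, with B nearer to adenoma than to N, was 330 and 122.

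The members described next are the 5 DMRs of each list and direction with the largest log2 difference among those without overlap and with at least 0.5 rpm in the higher group. Mob3b led those shifted towards adenoma on the hypomethylated list. At Mob3b (MOB kinase activator family, ENSMUSG00000073910, intron, chr4:34934251-34934750) the levels were 0.65, 0.56 and 0.4 rpm in B1, B2 and B3 and 0.27, 0.23 and 0.24 rpm in N4, N5 and N6. All N values were below all B values, which is how this DMR was chosen. They were above all 5 adenoma values, which ran from 0.12 to 0.2 rpm. The list was made by a rank test of normal against adenoma libraries that leaves little room for overlap, so this position was largely fixed. On the log2 scale N minus B was -0.96 (95% interval -1.38 to -0.54), with adjusted p = 0.68 in limma. Input DNA, sequenced without the antibody, was 0.53 rpm in B3 and 0.21 rpm in N4 at this place. The part of the input in the difference was not tested.

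At an intron of Fam178b (ENSMUSG00000046337, chr1:36632251-36633000) the levels were 0.46, 0.58 and 0.62 rpm in B and 0.29, 0.28 and 0.31 rpm in N. The N values lay within 0.03 rpm of each other and below every B value, with adenoma at 0.206 ± 0.0607 rpm (SD, n = 5). The difference on the log2 scale was -0.80 (95% interval -1.20 to -0.41, adjusted p = 0.68, limma).

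Socs3 encodes a feedback inhibitor of cytokine signalling through JAK and STAT proteins. Its exon DMR (ENSMUSG00000053113, chr11:117829001-117829500, 38 CpG) had 0.53, 0.68 and 0.87 rpm in B and 0.4, 0.44 and 0.32 rpm in N, against 0.192 ± 0.125 rpm in adenoma (SD, n = 5). N minus B came to -0.75 on the log2 scale (95% interval -1.16 to -0.35, adjusted p = 0.95, limma). Here the input was 0.81 rpm in B3 and listed at 0 in N4, and its part in the difference was not tested.

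Kdm5b encodes a demethylase of lysine 4 of histone H3. At its exon DMR (ENSMUSG00000042207, chr1:136502251-136502750) B had 0.56, 0.71 and 0.73 rpm and N 0.34, 0.38 and 0.41 rpm, with adenoma at 0.288 ± 0.0507 rpm (SD, n = 5). The highest adenoma value, 0.34 rpm, equalled the lowest N value. The log2 difference was -0.74 (95% interval -1.12 to -0.37, adjusted p = 0.68, limma), and the input was similar in B3 (0.09 rpm) and N4 (0.12 rpm). An intergenic DMR on chromosome 5 (chr5:54347501-54348000) had 0.43 to 0.68 rpm in B and 0.25 to 0.34 rpm in N.

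Towards adenoma on the hypermethylated list, the first of these DMRs was intergenic, on chromosome 13 (chr13:73408001-73408500, 17 CpG). Its levels were 0.63, 0.47 and 0.28 rpm in B and 1.07, 0.9 and 0.69 rpm in N. Every N value was above every B value, and N4, the highest, was above the lowest adenoma value of 0.98 rpm. N minus B was 0.92 on the log2 scale (95% interval 0.46 to 1.37, adjusted p = 0.68, limma). The input there was 0.03 rpm in B3 and 0.04 rpm in N4.

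The other DMRs of this class differed by 0.43 to 0.52 on the log2 scale, with adjusted p = 0.97 in limma at each. Xpo5, the nuclear export receptor of microRNA precursors, had 0.36, 0.38 and 0.5 rpm in B and 0.6, 0.64 and 0.57 rpm in N at an intron DMR. Adenoma reached 0.688 ± 0.0335 rpm (SD, n = 5), and the N value nearest to it lay just below the lowest adenoma value of 0.65 rpm. Samd4, an RNA-binding repressor of translation, had 0.81, 0.83 and 0.73 rpm in B and 1.02, 1.03 and 1.21 rpm in N at an intron DMR (chr14:47561501-47562000). An exon DMR of Gm12977 (chr4:133431751-133432250) had 0.44 to 0.65 rpm in B and 0.73 to 0.81 rpm in N. An intergenic DMR on chromosome 4 (chr4:87216501-87217000) had 0.32 rpm in B1, against 0.66 and 0.7 rpm in the other B libraries and 0.75 to 0.82 rpm in N, and its log2 difference was 0.20 without B1.

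Away from adenoma on the hypermethylated list, N lay below B while adenoma lay above both. Hoxa3, a homeobox transcription factor of segment identity, had 0.78, 0.9 and 0.71 rpm in B and 0.48, 0.27 and 0.62 rpm in N at its leading exon DMR (ENSMUSG00000079560, chr6:52120501-52121000, 26 CpG). The N values were spread widely, with N5 lowest, and adenoma was at 0.986 ± 0.115 rpm (SD, n = 5). The log2 difference was -0.80 (95% interval -1.24 to -0.35, adjusted p = 0.95, limma), and it ran from -1.03 to -0.50 when each library was left out in turn. A neighbouring Hoxa3 DMR, from position 52122001, had 1.24, 1.37 and 1.09 rpm in B and 0.69, 0.42 and 1.31 rpm in N, where N6 lay inside the B range.

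Nod2, an intracellular sensor of bacterial cell wall fragments, had 0.5, 0.62 and 0.54 rpm in B and 0.43, 0.2 and 0.38 rpm in N at an intron DMR (chr8:91192251-91192750). Pls1 encodes plastin 1, which bundles actin in the microvilli of the brush border. At its intron DMR (chr9:95714501-95715000) B had 0.82, 0.71 and 0.72 rpm and N 0.3, 0.64 and 0.52 rpm. The exon DMR of 2610318N02Rik (chr16:17121501-17122000) had 0.61 to 0.68 rpm in B and 0.34 to 0.5 rpm in N. At Zbtb2, a zinc finger and BTB domain protein, the intron DMR (chr10:5968251-5968750) had 0.49 to 0.53 rpm in B and 0.22 to 0.44 rpm in N. At these DMRs the B values lay close together and the N values were spread more widely, and the adjusted p was 0.95 or 0.97 in limma.

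Away from adenoma on the hypomethylated list, N lay above B while adenoma lay below or around B. Adcy6 encodes an adenylate cyclase, which makes cyclic AMP. Its DMR (ENSMUSG00000022994, chr15:98437001-98437750), whose upper edge reaches the promoter, had 0.48, 0.31 and 0.37 rpm in B and 0.71, 0.64 and 0.54 rpm in N, against 0.228 ± 0.0687 rpm in adenoma (SD, n = 5). Its log2 difference was 0.65 (95% interval 0.25 to 1.05, adjusted p = 0.97, limma). It was the 1 DMR assigned to a promoter among the 20 chosen in this way.

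Efna5, the ephrin-A5 ligand, had 0.33, 0.28 and 0.32 rpm in B and 0.43, 0.61 and 0.51 rpm in N at an intron DMR (chr17:63090251-63090750). Ptprr, a receptor-type phosphatase that acts on MAP kinases, had 0.38, 0.39 and 0.27 rpm in B and 0.5, 0.59 and 0.58 rpm in N at an intron DMR (chr10:115618001-115618500). At an intron DMR of Ccdc146 (chr5:20891001-20891500) B held to 0.6 to 0.62 rpm, N was at 0.85 to 1.13 rpm and adenoma at 0.37 to 0.6 rpm. An intergenic DMR on chromosome 15 (chr15:20953751-20954250) had 0.26 to 0.33 rpm in B and 0.45 to 0.6 rpm in N. The log2 differences of these DMRs were 0.60 to 0.66, with adjusted p of 0.95 or 0.97 in limma.

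**Figure D3:**
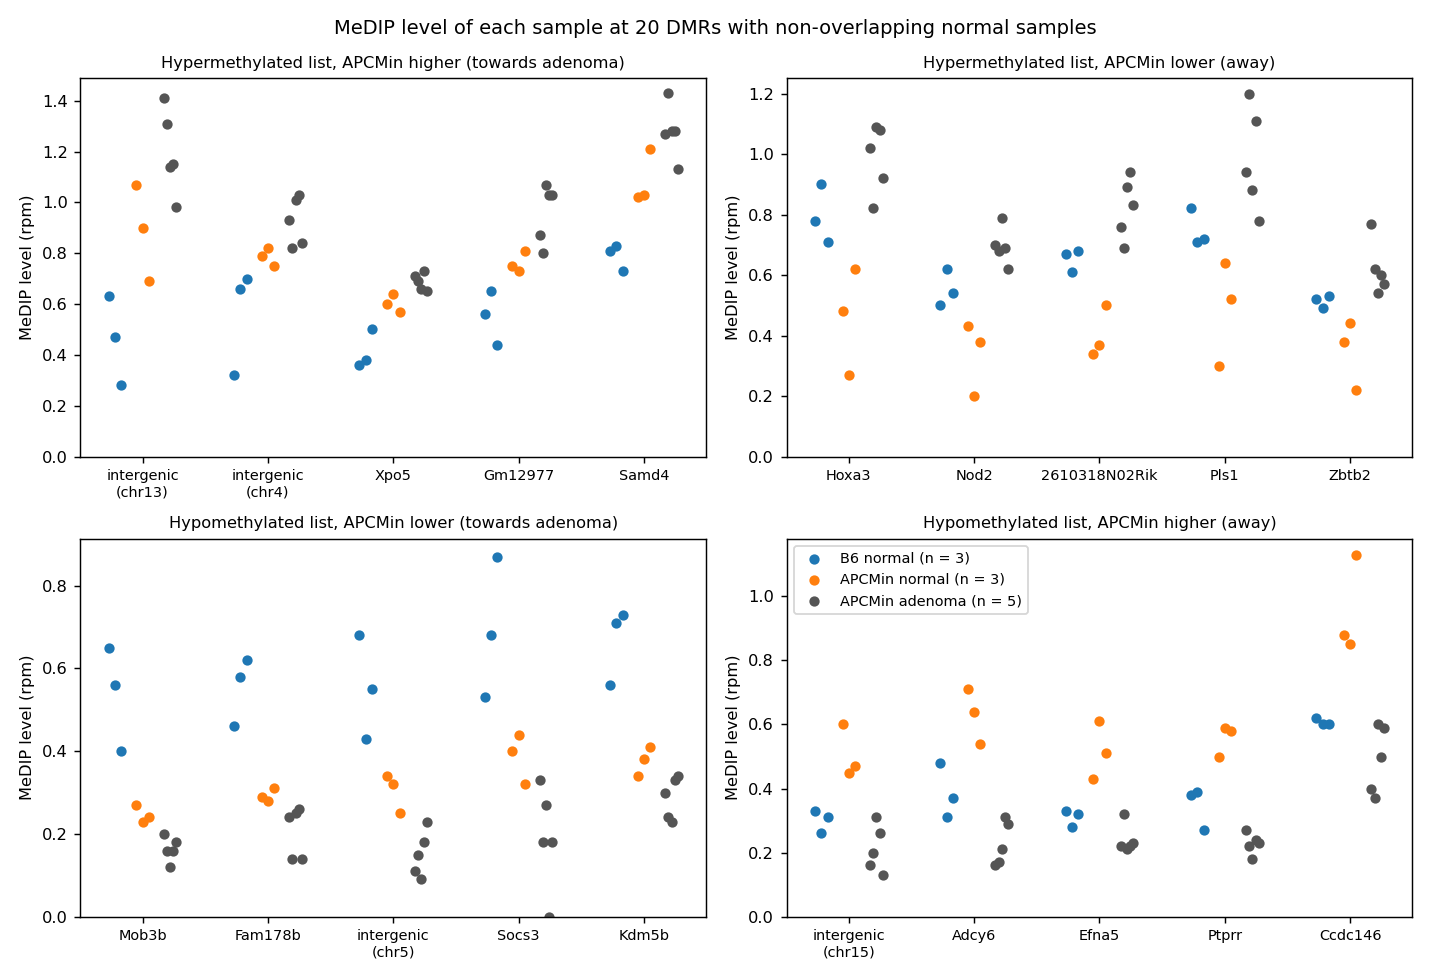
MeDIP level in rpm of every B (blue, n = 3), N (orange, n = 3) and adenoma (grey, n = 5) library at 20 DMRs, the 5 of each list and direction with the largest N to B difference among non-overlapping DMRs with at least 0.5 rpm in the higher group. In each DMR the orange points lie entirely above or below the blue ones, which is how the DMRs were chosen. At Mob3b the orange points lie between 0.23 and 0.27 rpm, above all grey ones, a separation that the making of the list largely fixed.

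Some DMRs outside that choice, several at levels under 0.5 rpm, were among the 10 with the lowest p-values and are named after their values were seen. Il33, a cytokine released by epithelium, had 0.3, 0.27 and 0.17 rpm in B and 0.6, 0.45 and 0.44 rpm in N at a hypomethylated intron DMR (chr19:30014751-30015250), away from adenoma at 0.158 ± 0.0719 rpm (SD, n = 5). Kitl, the ligand of the Kit receptor, had 0.81, 0.94 and 1.08 rpm in B and 0.44, 0.63 and 0.57 rpm in N at a hypomethylated intron DMR (chr10:99505001-99505750), towards adenoma at 0.372 ± 0.0701 rpm (SD, n = 5). H2-Eb1, a chain of an MHC class II molecule, had 0.25, 0.34 and 0.36 rpm in B and 0.1, 0.15 and 0.13 rpm in N at a hypermethylated intron DMR (chr17:34445001-34445500), away from adenoma. Arhgap40 had 0.45, 0.48 and 0.51 rpm in B and 0.3, 0.19 and 0.21 rpm in N at a hypermethylated intron DMR (chr2:158346001-158346500), also away. All of these had adjusted p = 0.68 in limma. Input in B3 and N4 was 0.19 and 0.21 rpm at Il33 and 0.17 and 0 rpm at Kitl. It was 0.19 and 0.12 rpm at H2-Eb1 and 0.34 and 0.12 rpm at Arhgap40. The part of the input in these differences was not tested.

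Synj2, which encodes a phosphoinositide phosphatase, held the one region that any setting called among all DMRs. Its hypomethylated exon DMR (chr17:5975251-5975750, 14 CpG) had 0.29, 0.65 and 0.82 rpm in B and 0.14, 0.24 and 0.31 rpm in N, with adenoma between 0.03 and 0.13 rpm. B1 lay inside the N range. The log2 difference was -1.13 (SE 0.27, adjusted p = 0.68, limma) and, with B1 left out, -1.53 (adjusted p = 0.00851, limma). The call therefore rests on leaving out 1 library. Input DNA there was 0.5 rpm in B3 and 0.15 rpm in N4, and its part in the difference was not tested.

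The genes that the study names for their adenoma DMRs were then followed into normal tissue. The study picked them for adenoma against these normal libraries, so they are not an independent sample of regions. The 28 genes have 26 DMRs under the rule of 1 DMR per gene, since Otop2 shares its DMR with Ush1g and Pla2g2a with Pla2g5. None was called. N and B did not overlap at 5 of the 26 (19.2%, against 8.06% of all DMRs), each with N lower. Over all 57 DMRs of these genes the count was 7 (12.3%), 5 with N lower and 2, in Ttc7b and Mmp14, with N higher. Under the rule of 1 DMR per gene, the median log2 difference was -0.20 over the 13 hypermethylated DMRs and 0.01 over the 13 hypomethylated DMRs.

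Of the hypomethylated DMRs under this rule, those of Pla2g10 and Sdc1 had the largest differences with N lower. Pla2g10 encodes a secreted phospholipase A2. Its promoter DMR (chr16:13730751-13731500) had 0.51, 0.7 and 0.75 rpm in B and 0.26, 0.41 and 0.46 rpm in N, between B and an adenoma mean of 0.124 ± 0.0594 rpm (SD, n = 5). Its log2 difference was -0.74 (95% interval -1.16 to -0.31, adjusted p = 0.95, limma). Sdc1 encodes syndecan 1, a heparan sulfate proteoglycan of the epithelial surface. Its intron DMR (chr12:8781751-8782750) had 0.64, 0.76 and 0.58 rpm in B and 0.35, 0.51 and 0.4 rpm in N, with adenoma at 0.138 ± 0.0268 rpm (SD, n = 5). The log2 difference was -0.60 (95% interval -0.99 to -0.21, adjusted p = 0.97, limma).

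Fos, a subunit of the AP-1 transcription factor, had the highest mean level in normal tissue among these DMRs. Its exon DMR (chr12:86817001-86818000) had 1.89, 1.92 and 1.97 rpm in B and 1.65, 1.61 and 1.71 rpm in N. Both groups were tight and did not overlap, but the log2 difference was small at -0.21 (95% interval -0.52 to 0.10, adjusted p = 1.0, limma). Dusp6, a phosphatase of ERK, had 0.73, 1.04 and 1.05 rpm in B and 0.8, 0.55 and 0.63 rpm in N (chr10:98728251-98729500), where N4 overlapped B. Ttc7b lay the other way, with 0.61, 0.38 and 0.44 rpm in B and 0.62, 0.72 and 0.57 rpm in N at its exon DMR (chr12:101657501-101658250).

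The secreted Wnt inhibitors Wif1 and Sfrp2, which are hypomethylated in adenoma, had a mean level in N at or above that in B. Wif1 had 0.28, 0.26 and 0.46 rpm in B and 0.31, 0.42 and 0.51 rpm in N at its intron DMR (chr10:120493501-120494250). Sfrp2 had 0.24, 0.18 and 0.31 rpm in B and 0.3, 0.24 and 0.31 rpm in N at its exon DMR (chr3:83575501-83576000). The groups overlapped at both. Pla2g2a, known as a modifier of tumour number in Min mice, had 0.89, 1.24 and 1.31 rpm in B and 1.13, 1.27 and 1.08 rpm in N at its promoter DMR (chr4:138387751-138388750), a log2 difference of 0.03 (95% interval -0.32 to 0.39, adjusted p = 1.0, limma).

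Of the 13 hypermethylated DMRs, 12 had a mean log2 level lower in N (92.3%, against 53.7% of all hypermethylated DMRs) and 1, at Plcd3, higher. Several of the 13 are rich in CpG. Among all hypermethylated DMRs with 20 or more CpG per 500 bp, the share with N lower was 72.5%. Some of the 12 were near 0, with a log2 difference of -0.0012 at Hand1. At Gata4 it was -0.06 and ran from -0.7 to 0.82 when each library was left out in turn. Those at Irx2, Grm7 and Zfp503 rested on 1 library, as given below. Otop2 and Ush1g share a DMR (chr11:115179251-115180750, 80 CpG) with 0.28, 0.31 and 0.34 rpm in B and 0.25, 0.29 and 0.25 rpm in N, where adenoma reached 1.53 ± 0.318 rpm (SD, n = 5). N was at the level of B there, with a log2 difference of -0.20 (95% interval -0.62 to 0.22, adjusted p = 1.0, limma). The same held at the promoter DMR of the sodium-proton exchanger gene Slc9a3 (chr13:74258501-74259500), where B and N both lay between 0.01 and 0.04 rpm and adenoma at 0.37 ± 0.137 rpm (SD, n = 5).

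Crmp1 and Onecut3 were the hypermethylated genes at which N and B did not overlap, at levels close to 0. Crmp1 had 0.11, 0.13 and 0.12 rpm in B and 0.06, 0.06 and 0.09 rpm in N at its promoter DMR (chr5:37633251-37634000). Onecut3 had 0.05, 0.07 and 0.06 rpm in B and 0.02, 0.02 and 0.01 rpm in N (chr10:79965251-79966250). Such levels stand on very few fragments, and their 95% intervals, -1.23 to 0.21 and -1.86 to 0.41 on the log2 scale, include 0.

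Several CpG-rich genes of this group varied more within a genotype than between genotypes. Irx2, a homeobox gene, had 0.97, 1.16 and 0.97 rpm in B and 0.75, 0.24 and 1.44 rpm in N at its exon DMR (chr13:72768251-72769750, 106 CpG). Grm7, a glutamate receptor gene, had 0.22, 0.35 and 0.26 rpm in B and 0.29, 0.04 and 0.24 rpm in N at its promoter DMR (chr6:110595751-110596500). Zfp503 had 0.43, 0.42 and 0.16 rpm in B and 0.25, 0.05 and 0.41 rpm in N (chr14:22803751-22804750). N5 was the lowest library at all of these, and the log2 differences of -0.62, -0.64 and -0.59 came to 0.02, -0.04 and 0.04 without N5. Gata4, a transcription factor of the proximal gut, had 0.6 rpm in B2 against 0.03 to 0.15 rpm in the other 5 normal libraries at its exon DMR (chr14:63859501-63860750).

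**Figure D4:**
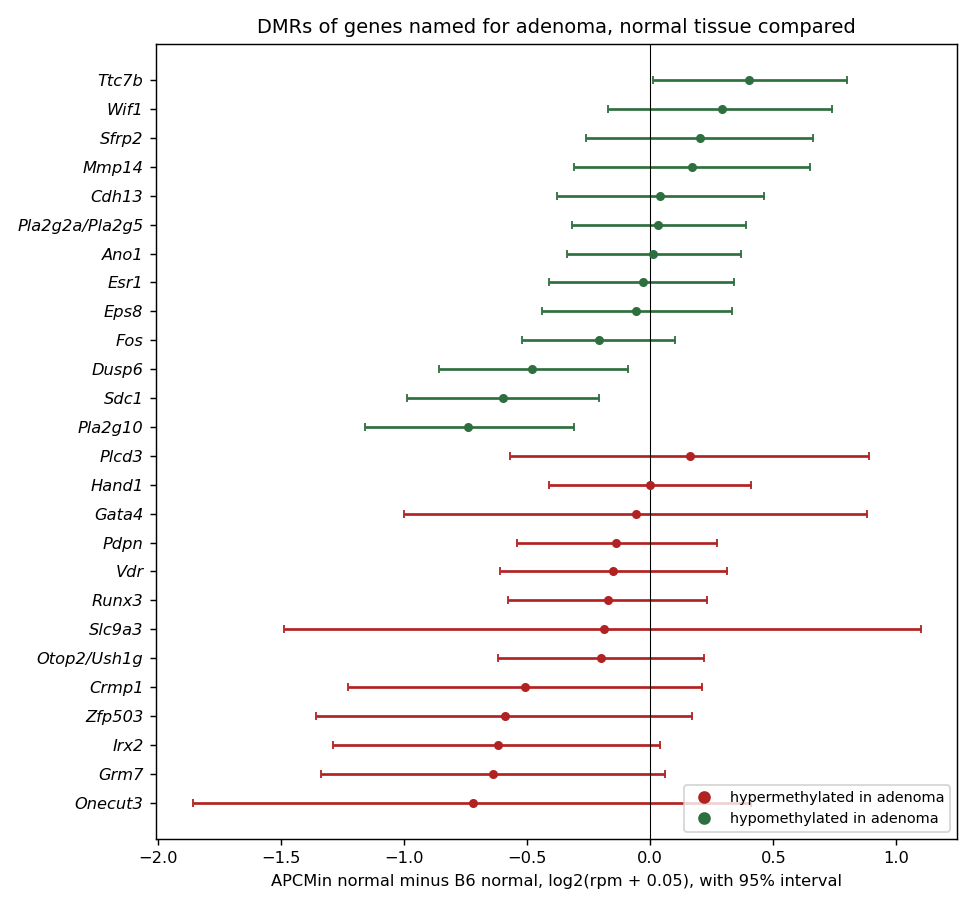
Log2(rpm + 0.05) difference, APCMin normal minus B6 normal, at the 26 DMRs of the 28 genes named for adenoma, with the 95% interval from limma (3 against 3 libraries), coloured by the direction in adenoma. The estimates run from -0.74 at Pla2g10 to 0.40 at Ttc7b, and the intervals at Pla2g10, Sdc1, Dusp6 and Ttc7b leave out 0 before adjustment.

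The low level of N5 at CpG-rich regions was seen across the list. At the 269 hypermethylated DMRs with 20 or more CpG per 500 bp the mean level was 0.583, 0.753 and 0.643 rpm in B and 0.611, 0.436 and 0.714 rpm in N. N5 was lowest and B2 highest, and the other N libraries lay inside the B range. The median log2 difference was -0.17, and 0.01 without N5. At the 990 hypermethylated DMRs with under 5 CpG per 500 bp the median was 0.03, with mean levels of 0.216 to 0.223 rpm in B and 0.218 to 0.238 rpm in N.

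The hypomethylated list showed a like gradient with smaller steps. The median log2 difference was 0.03 at under 5 CpG, -0.02 at 5 to under 10 and -0.06 at 10 to under 20 CpG per 500 bp. At the last of these, 2598 DMRs, the mean level was 0.588, 0.58 and 0.615 rpm in B and 0.56, 0.562 and 0.575 rpm in N, so that all N libraries lay below all B libraries. This median was -0.02 with the library medians subtracted. The median of the 65 DMRs with 20 or more CpG, -0.03, departed from this gradient. Their mean levels were 0.745, 0.741 and 0.719 rpm in B and 0.651, 0.608 and 0.755 rpm in N. N5 was the lowest library there too, while N6 lay above all B libraries. Up to under 20 CpG the gradient ran the same way on both lists, towards adenoma on the hypomethylated and away from it on the hypermethylated list, and its cause was not tested.

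**Figure D5:**
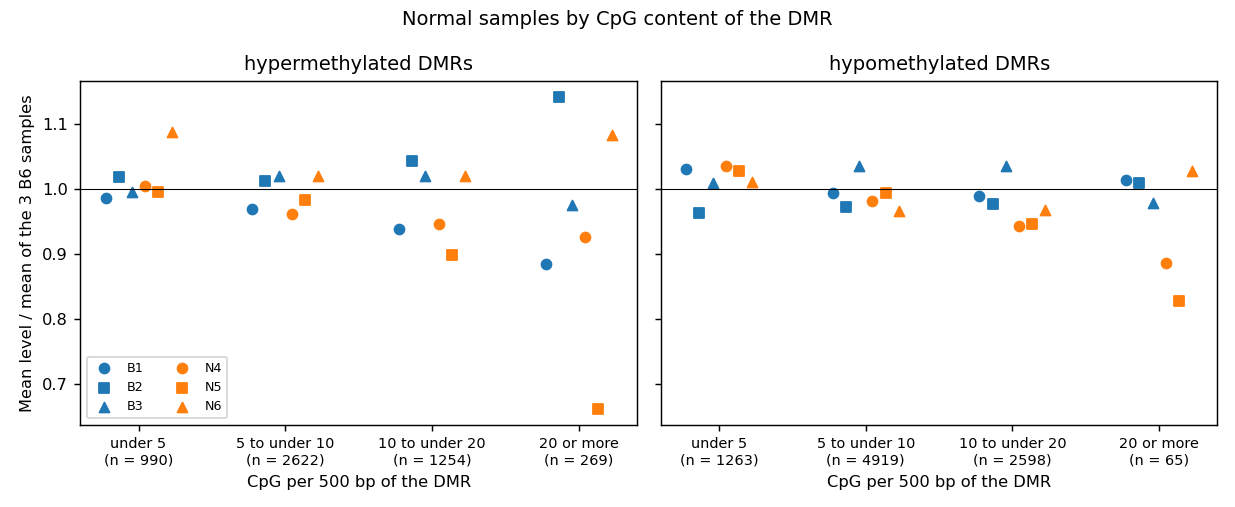
Mean level of each normal library divided by the mean of the 3 B libraries (no unit), by CpG content of the DMR, for the hypermethylated (left) and hypomethylated (right) lists. N5 falls to the lowest point on the left at 20 or more CpG per 500 bp (0.436 rpm), while N4 and N6 (0.611 and 0.714 rpm) stay within the B range.

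By place in the genome, promoters of the hypermethylated list lay furthest from 0. Of 265 such DMRs, 3 had N higher and 14 N lower without overlap (6.42% in all), and the median log2 difference was -0.10. It ran from -0.15 to -0.06 when single libraries were left out and was -0.06 with the library medians subtracted. The median was -0.05 at 983 exon, -0.01 at 1964 intron and 0.00 at 1923 intergenic DMRs of this list. On the hypomethylated list the medians were -0.02, -0.05, -0.02 and -0.02 at 278 promoter, 1056 exon, 3823 intron and 3688 intergenic DMRs. The non-overlapping share ranged from 6.42% to 9.28% over these classes, close to the 8.06% of all DMRs.

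No autosome stood apart. The share of DMRs with non-overlapping N and B values ran from 6.63% on chromosome 4 to 10.1% on chromosome 12, and was 7.68% on chromosome 18, which carries Apc (chr18:34380578-34481843). Apc itself held 3 DMRs, none with non-overlapping values. Within 1 Mb of the gene, N was higher in mean at 9 of 17 DMRs, with a median log2 difference of 0.05. Within 5 Mb of the gene, 6 of 68 DMRs did not overlap (8.82%), 2 with N higher and 4 with N lower. N was lower in mean at 48 of these 68 DMRs (70.6%, against 54.5% of all DMRs), with a median log2 difference of -0.09, which ran from -0.13 to -0.05 when single libraries were left out and was -0.06 with the library medians subtracted.

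Among 55 DMRs in 27 of 73 Wnt pathway genes, none was called, and N and B did not overlap at 7 (12.7%, against 8.06% of all DMRs), with N higher at 1 and N lower at 6. Of those with N lower, Dvl3, Wnt7b, Lrp5, Ror2 and Tcf7l1 lay on the hypomethylated list, towards adenoma. Dvl3, a Dishevelled protein that relays the signal from Frizzled receptors, had 0.53, 0.52 and 0.66 rpm in B and 0.43, 0.44 and 0.38 rpm in N at its exon DMR. Lrp5, a Wnt co-receptor, had 0.49, 0.48 and 0.5 rpm in B and 0.42, 0.4 and 0.47 rpm in N. Wnt7b, a ligand, had 0.64, 0.68 and 0.49 rpm in B and 0.47, 0.47 and 0.48 rpm in N. Tcf7l2, the nuclear partner of beta-catenin in the intestine, lay on the hypermethylated list with 0.29, 0.26 and 0.25 rpm in B and 0.23, 0.22 and 0.19 rpm in N, away from adenoma. Kremen1, a receptor of Dickkopf inhibitors, was the member with N higher, at 0.77, 0.68 and 0.65 rpm in B and 0.89, 0.78 and 0.93 rpm in N, also away. The adjusted p was 1.0 in limma for each, and the list's median was -0.08 against -0.02 over all DMRs. It was -0.12 at the hypermethylated and -0.03 at the hypomethylated DMRs of these genes. At an unadjusted p under 0.05 in limma, 1 of the 55 DMRs differed (1.82%, against 4.63% of all DMRs).

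Developmental transcription factors, many of which gain methylation in adenoma, had 71 DMRs in 48 of 150 genes. N and B did not overlap at 4, all with N lower (5.63%, near the 4.82% of all DMRs), and the median was -0.10, or -0.06 with the library medians subtracted. These were at Hoxa3, Eomes, Onecut3 and Irx4, all on the hypermethylated list and so away from adenoma. Among 17 DMRs in 9 genes of the DNA methylation and Polycomb machinery, 1 did not overlap (5.88%, against 8.06% of all DMRs). It lay in an intron of Tet1, which oxidises methylcytosine, with 0.45, 0.42 and 0.47 rpm in B and 0.23, 0.32 and 0.32 rpm in N, on the hypermethylated list. Of 10 DMRs in imprinted genes none was without overlap.

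Few DMRs lay in marker genes of cell types. There were 23 in intestinal stem cell markers, with 1 non-overlapping DMR (4.35%, against 8.06% of all DMRs), in Ephb2 (0.31, 0.36 and 0.33 rpm in B and 0.28, 0.27 and 0.22 rpm in N). There were 10 in enterocyte, 11 in secretory, 11 in lymphocyte and leukocyte and 14 in smooth muscle, fibroblast and endothelial markers. N and B did not overlap at 1 of these DMRs, on the secretory list (9.09%, against 8.06% of all DMRs), in the tuft cell factor Pou2f3 (0.37, 0.44 and 0.35 rpm in B and 0.33, 0.3 and 0.31 rpm in N). The list medians lay between -0.09 and 0.00, and that of the smooth muscle, fibroblast and endothelial markers went from -0.01 to 0.03 with the library medians subtracted. A different mix of cells and a different methylation level within cells cannot be told apart in bulk tissue.

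The libraries carry numbers in their titles whose first part differs. B1, B2 and N4 share the number 4, N5 and N6 have 9 and B3 has 10, so that outside number 4 the number and the genotype cannot be told apart. Comparing N4 with B1 and B2 alone kept the direction of all 20 DMRs chosen as above, for example with a log2 difference of -1.03 at Mob3b, 0.91 at the chromosome 13 DMR, -0.74 at Hoxa3 and 0.80 at Adcy6. These samples also chose the DMRs, so this is a description. Input DNA was sequenced for B3 and N4 only and averaged 0.181 and 0.142 rpm over the hypermethylated and 0.181 and 0.158 rpm over the hypomethylated DMRs. Its ratio, N4 over B3, was 0.786 over all hypermethylated DMRs, 0.905 at the 186 non-overlapping ones with N higher and 0.829 at the 223 with N lower, so that both of these lay above the ratio of the whole list. On the hypomethylated list it was 0.873 over all DMRs, 0.922 at the 267 non-overlapping ones with N higher and 0.835 at the 451 with N lower. Its part in the differences was not tested.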

How the data were processed

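Genomic DNA of B6 and APCMin normal ileum and of adenoma was enriched by MeDIP and sequenced. According to the methods and the submitters' processing notes, the authors aligned reads with Bowtie 0.12.5 to mm9, extended them to 300 nt and computed the deposited rpm values (reads per 1000000 unique reads) in 500 bp windows at 250 bp steps. They kept windows that differed between the pooled normal libraries and adenoma and merged them into DMRs. The libraries held 18687303 to 21387735 (B) and 18065841 to 26297510 (N) unique reads. In a 500 bp window, 0.5 rpm then stands for 15.1 to 21.9 fragments, a counting SD of 21.4% to 25.8%, which covers counting error only.

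The deposited tables were read as they stand. DMRs were placed with the GENCODE vM1 annotation of NCBIM37, whose chromosomes hold all DMR coordinates, in the order promoter (1000 bp upstream to 500 bp downstream of the 5′ end), exon, intron, intergenic. N and B were compared with limma 3.58.1 in R 4.3.3 (trend in the prior variance, two-sided) on log2(rpm + 0.05), with Benjamini-Hochberg adjustment over 13980 DMRs and a threshold of 0.05. Differences on this scale understate those of low regions. The fit was tested on simulated data. Non-overlap means that all 3 N values lie above, or all below, all 3 B values; ties count as overlap. The p-values measure the spread between 3 animals a group.

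Named DMRs were, for each list and direction, the 5 with the largest log2 difference among called DMRs, filled up from non-overlapping DMRs where the group with more signal averaged 0.5 rpm or above, plus 1 DMR per gene that the study names. The members and gene lists were chosen with earlier results of these data known. Of 451 list symbols, 445 were in the annotation. Alternatives were other pseudocounts, filters, scalings, samples and regions. Columns of adenoma only gave directions, and RNA-seq was not analysed here. Sequences are shown for a few DMRs, and 1 that the rule for sequences would have given is not reported here.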

Additional observations from a re-analysis of the deposited data

Results flagged for a closer look

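At the intron DMR of Efna5 on the hypomethylated list, 1 adenoma library, Ad4-1, had 0.32 rpm against 0.21 to 0.23 rpm in the other adenoma libraries, a gap beyond the 95% critical value of Dixon's test for 5 samples. Chance alone gives such a gap in about 1 of 20 groups of independent samples, and 20 DMRs were looked at. Ad4-1 and Ad4 came from the same animal, so the adenoma values are not all independent. Groups of 3 libraries were not tested in this way.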

How the results depend on the processing

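No paired analysis was possible because the N and B libraries come from different animals and share no replicate number. No DMR was called under any alternative except without B1, where 1 was (0 to 1 over the libraries left out). All 20 DMRs named for the 4 combinations of list and direction kept their direction in the 300 values computed, and none was called (adjusted p from 0.0826 to 1.0, limma). These DMRs were chosen for N and B values that do not overlap. Leaving out libraries or changing the pseudocount could therefore not reverse their direction, and keeping it is no evidence of a stable difference. At an unadjusted p under 0.05, N was higher at 305 DMRs with library medians subtracted. The hypomethylated median was then 0.0124, and 0.0087 after quantile normalization, against -0.0413 to -0.0101 over the libraries left out; the hypermethylated median changed sign too with library medians subtracted (0.02). Non-overlapping counts rose by construction with fewer samples. Over the libraries left out they were 342 to 435 (hypermethylated, N higher), 387 to 588 (hypermethylated, N lower), 808 to 1011 (hypomethylated, N lower) and 537 to 713 (hypomethylated, N higher). With library number 4 only they were 1450, 1755, 2901 and 2681 in the same order. A mean of at least 0.25 rpm left 72 and 132 on the hypermethylated list, since fewer DMRs were counted, and hypomethylated DMRs with N higher came to 426 with medians subtracted and 407 after quantile normalization, where the cause was not tested. Leaving out libraries for the medians by CpG content, promoter, gene list and distance to Apc was chosen after seeing the data. With 3 libraries a group and the fragments behind 0.5 rpm, a region of median error needed an estimated log2 difference of 1.23 to be called alone. That is above the typical adenoma difference. Each of 100 such regions needed 0.86, and the size needed falls further where more regions differ.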
